A study of Homo sapiens with 4 samples.

Results

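The BCL2 family sets whether a cell under stress releases cytochrome c from its mitochondria and dies. Transcript levels of 10 of its genes were examined in SUM159 cells. The genes were listed by symbol for their place in the family. They comprise 5 anti-apoptotic members (BCL2, BCL2L1, BCL2L2, MCL1 and BCL2A1), 2 effectors (BAX and BAK1) and 3 BH3-only members (BBC3, PMAIP1 and BCL2L11). All 10 were found among the 60279 genes of the count tables, of which 14269 averaged 1 CPM or more (read counts relative to the library's gene total, in the usual unit of CPM) and were compared between libraries. Of the 10 members, 9 were among the genes compared. BCL2A1 was not.

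SUM159 is an established human triple-negative breast cancer cell line. It was sequenced untreated, with palbociclib, with indisulam and with both drugs, with 1 library for each condition. Palbociclib blocks CDK4 and CDK6, kinases that drive cells into S phase, and indisulam is a sulfonamide that brings the splicing factor RBM39 to a ubiquitin ligase for degradation. The labels give 0.5 µM palbociclib, 2 µM indisulam and a duration of 10 days, whereas the text on the series gives 2 µM, 3 µM and 16 h with technical duplicates. The paper describes RNA sequencing of SUM159 at both settings, as separate experiments. For the 16 h experiment it names the aligner Hisat2, whereas the labels name TopHat2. Dose and duration of these libraries are not stated beyond that and were not settled here. The labels name no genetic change in any of the 4 conditions.

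Gene totals ran from 12555908 reads in the untreated library to 16712174 in the indisulam library, and the floor of 3 counts lay between 0.180 and 0.239 CPM. Mitochondrially encoded transcripts took 4.90 to 7.33% of the reads. The 5 genes expected in SUM159 (VIM, CD44, AXL, SPARC and KRT18) summed to 5892 to 7419 CPM. ESR1 and PGR stayed at or below 1.11 CPM while ERBB2 lay between 110 and 143 CPM. Of 4 blood cell markers, CD3E had no read in any library, which allows at most the floor, and the list summed to 15.7 to 21.4 CPM, most of it PTPRC and CD14. The endothelial pair PECAM1 and CDH5 summed to 42.7 CPM in the palbociclib library and to at most 20.4 CPM in the others, and 4 luminal epithelial genes summed to at most 15.9 CPM. The part of these shifts in the results below was not tested.

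Anti-apoptotic members hold the effectors BAX and BAK1 and the BH3-only proteins in check. BH3-only proteins respond to stress, bind the anti-apoptotic members through a short helix and so free or activate the effectors, which then form pores in the outer mitochondrial membrane. The pairing is selective, since the PMAIP1 product NOXA binds chiefly MCL1 and the BCL2A1 product, whereas the products of BBC3 (PUMA) and BCL2L11 (BIM) bind all anti-apoptotic members. Inhibitors such as navitoclax, which the study used as a senolytic, block the products of BCL2, BCL2L1 (BCL-xL) and BCL2L2 (BCL-W) and spare MCL1. The activity of most members is set at the protein level, by binding, phosphorylation or turnover, so transcript counts describe only their supply. Gene-level counts also add up the isoforms of each gene, among them the long and short forms of BCL2L1 and MCL1, which are known to have opposed functions.

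**Figure D1:**
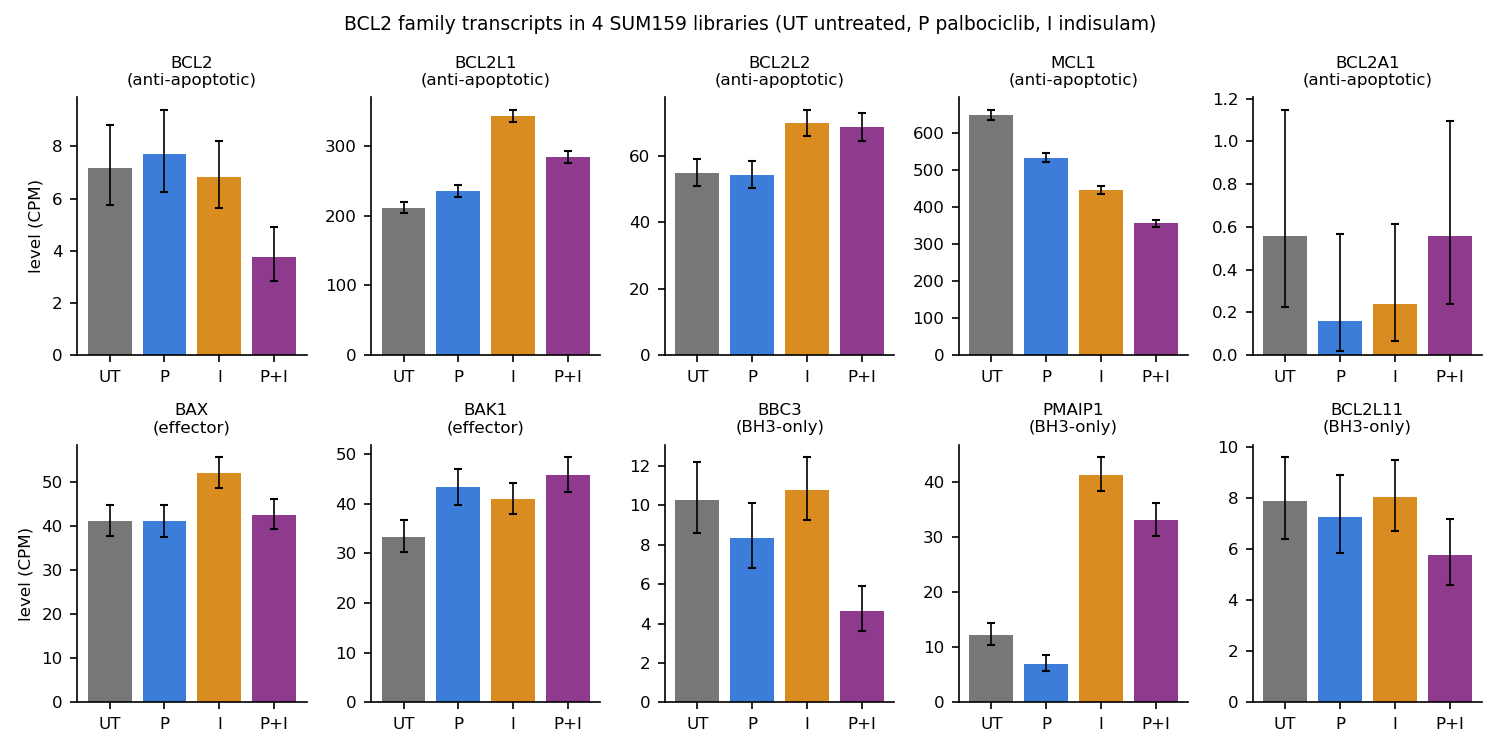
Level of each of the 10 members in CPM (y axis, starting at 0, own scale per gene) in the untreated (UT), palbociclib (P), indisulam (I) and combination (P+I) libraries. Bars are single libraries and lines are exact 95% Poisson intervals, which cover counting error only. PMAIP1 stands higher in both libraries with indisulam, MCL1 falls off from left to right, and BBC3 and BCL2 are lowest with the combination.

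MCL1, on chromosome 1 (150560895 to 150579738, minus strand, GRCh38), was the member with the most reads in all 4 libraries. Its protein is short-lived and guards the effectors in many epithelial cancers. It measured 648 CPM untreated, 533 CPM with palbociclib, 445 CPM with indisulam and 356 CPM with the combination, from 8136, 6761, 7443 and 5109 reads. In such bulk libraries, fewer cells with the transcript and less of it per cell cannot be told apart. Every treated library was below the untreated one, and the combination was below each single drug. For palbociclib the log2 ratio to untreated was -0.28 (95% counting interval -0.33 to -0.24). For indisulam it was -0.54 (-0.59 to -0.50) and for the combination -0.86 (-0.92 to -0.81). The 2 drugs left MCL1 close to where their separate log2 ratios would add up to, with a departure of only -0.04 (-0.11 to 0.03).

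How far such ratios can be trusted is limited by the lack of replicates. In place of replicate error, the spread of the departure from additivity over genes of similar level was used, scaled down to a single ratio. It holds noise between libraries as well as true interaction of the drugs, and is called the spread bound below. It is the size of a robust standard deviation, not a limit, so a ratio somewhat above it is not thereby beyond noise. It amounted to a log2 ratio of 0.62 for genes of 1 to 5 CPM, 0.37 for 5 to 20 CPM, 0.26 for 20 to 100 CPM and 0.28 for 100 CPM and above. It describes a typical gene of each class, and no p-value was computed. The class of a gene was set by its mean CPM over the 4 libraries. The MCL1 ratio with the combination was 3.09 times its bound and that with indisulam 1.93 times, while the palbociclib ratio was 1.01 times the bound.

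BCL2L1 lies on chromosome 20 (31664452 to 31723989, minus strand) and encodes BCL-xL, a stable survival protein. Its levels were 211 CPM untreated, 235 CPM with palbociclib, 343 CPM with indisulam and 284 CPM with the combination. Both libraries with indisulam were higher than both without it. The log2 ratio with indisulam was 0.70 (0.63 to 0.77) over untreated, 2.49 times the spread bound, and 0.27 (0.20 to 0.34) on top of palbociclib, 0.973 times the bound. It passed the 2-fold threshold in no comparison. The annotated exons of BCL2L1 overlap those of the antisense RNA ABALON over 41.3% of their bases, and whether reads were assigned by strand was not stated.

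BCL2L2, the gene of BCL-W, stood at 54.9 CPM untreated and 54.4 CPM with palbociclib, against 69.8 CPM with indisulam and 68.6 CPM with the combination. The log2 ratios were 0.35 (0.21 to 0.48) for indisulam over untreated and 0.33 (0.19 to 0.48) for the combination over palbociclib, which share no library. Both were slightly above the bound of 0.26, at 1.33 and 1.28 times. The readthrough gene BCL2L2-PABPN1 shares 16.8% of the exon bases of BCL2L2 on the same strand and had 0 to 2 reads. Reads in the shared bases may have been tallied as ambiguous, as were 2.41 to 2.63% of the reads tallied. The low count thus does not show that the readthrough is absent, and BCL2L2 may be undercounted.

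BCL2 itself was a low transcript in these cells. It had 90 reads untreated, 98 with palbociclib, 114 with indisulam and 54 with the combination, which is 7.17, 7.72, 6.82 and 3.76 CPM. The 3 libraries other than the combination overlapped within their counting intervals, and the combination lay below them all. Its log2 ratio was -0.92 (-1.40 to -0.44) to untreated, -1.02 (-1.496 to -0.55) to palbociclib and -0.85 (-1.31 to -0.39) to indisulam. These were 2.50, 2.79 and 2.30 times the bound, and all 3 rest on the same 54 reads of a single library. BCL2A1, an NF-kB target best known from blood cells, had 7, 2, 4 and 8 reads in the same order. That is at most 0.558 CPM and near the floor of 3 counts, so neither a difference nor its absence can be read from it at this depth.

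Levels of different members were compared per kilobase of annotated exon. On this scale MCL1 made up 62.4% of the summed anti-apoptotic transcripts untreated, 55.7% with palbociclib, 42.5% with indisulam and 40.9% with the combination. BCL2L1 made up 30.2, 36.5, 48.5 and 48.4%. On this scale the larger share belonged to MCL1 in the untreated and palbociclib libraries and to BCL2L1 in the libraries with indisulam. In reads MCL1 was ahead of BCL2L1 in all 4 libraries, so which gene leads with indisulam depends on the exon lengths used. BCL2L2 held 6.79 to 10.1%, and BCL2 and BCL2A1 each held at most 0.400%. The 3 genes whose products navitoclax binds together took 37.3% untreated, 44.2% with palbociclib, 57.4% with indisulam and 58.7% with the combination. The sum over the 5 members was 167, 154, 169 and 139.9 CPM per kilobase. Exon lengths were merged over all annotated transcripts (6222 bases for MCL1, 4197 for BCL2L1), so that rarely used exons lower a gene's value, and the shares shift with the transcripts chosen, although the change of a gene between libraries does not.

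The effectors BAX and BAK1 were present in every library at moderate levels. BAX measured 41.2 CPM untreated, 41.1 CPM with palbociclib, 52.1 CPM with indisulam and 42.6 CPM with the combination. The indisulam library stood above the other 3, which overlapped. BAK1 measured 33.3, 43.3, 41.0 and 45.8 CPM, with the untreated library below the 3 treated ones, whose intervals overlapped. The largest log2 ratio of either gene was 0.46 (0.28 to 0.63) for BAK1 in the combination over untreated, 1.75 times the spread bound. The ratio of BAX to BAK1 reads was 1.24 untreated and 1.27 with indisulam, against 0.949 with palbociclib and 0.932 with the combination. It differed between combination and indisulam by -0.45 (-0.66 to -0.23) and between palbociclib and untreated by -0.38 (-0.63 to -0.13) on the log2 scale. In both pairs, which share no library, the library with palbociclib had the lower ratio. The intervals of these differences cover counting error only, and no spread bound was formed for ratios of reads.

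Among the BH3-only members PMAIP1 differed most. It lies on chromosome 18 (59899996 to 59904305, plus strand) and encodes NOXA, known as a target of p53 and of the integrated stress response. It had 154 reads untreated, 89 with palbociclib, 690 with indisulam and 474 with the combination, which is 12.3, 7.01, 41.3 and 33.0 CPM. Both libraries with indisulam stood above both without it, with no overlap of their intervals. The log2 ratio was 1.75 (1.49 to 2.00) for indisulam over untreated, a 3.35-fold difference, and 2.22 (1.90 to 2.55) for the combination over palbociclib, a 4.67-fold difference. These 2 estimates share no library, and they were 6.67 and 8.50 times the spread bound. The palbociclib library was below the untreated one by a log2 ratio of -0.80 (-1.17 to -0.43), and the combination below indisulam by -0.32 (-0.49 to -0.15), or 3.06 and 1.23 times the bound. PMAIP1, with a mean of 23.4 CPM, reached the class of 20 to 100 CPM (bound 0.26) only through the libraries with indisulam. By their own levels the untreated and palbociclib libraries fall in the class of 5 to 20 CPM, with a bound of 0.37. Against that bound, the multiples that involve either of them are smaller.

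BBC3, whose product PUMA is a further target of p53, measured 10.3 CPM untreated, 8.35 CPM with palbociclib, 10.8 CPM with indisulam and 4.67 CPM with the combination, from 129, 106, 180 and 67 reads. The combination was lowest and its interval met that of no other library. The log2 ratio of the combination was -1.13 (-1.55 to -0.71) to untreated, -0.83 (-1.27 to -0.39) to palbociclib and -1.19 (-1.59 to -0.80) to indisulam, between 2.26 and 3.25 times the bound. All 3 rest on the same 67 reads of a single library. BCL2L11, the gene of BIM, measured 7.88, 7.25, 8.02 and 5.78 CPM in the same order. The level intervals of BCL2L11 overlapped in all 4 libraries. Its log2 ratio for the combination was -0.44 (-0.86 to -0.03) to untreated and -0.47 (-0.86 to -0.08) to indisulam. Its ratios were at most 1.27 times the bound. Its exons share 10.8% of their bases with MIR4435-2HG on the opposite strand, which had 538 to 993 reads, so that the BCL2L11 counts are uncertain unless reads were assigned by strand. The 3 BH3-only genes thus did not move as a group, as PMAIP1 was higher in the combination than untreated while BBC3 was lower.

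HRK, a further BH3-only gene that is no member of the list, is described here because it was the gene of the wider pathway with the largest ratio in either direction, a choice made after its values were seen. Its product Harakiri binds chiefly BCL-xL and BCL2. It had 3 reads untreated and 3 with palbociclib, which is the floor, against 81 with indisulam and 128 with the combination (4.85 and 8.91 CPM). The ratio of scaled reads was 20.3 for indisulam over untreated, with an exact 95% interval of 6.70 to 100.4, and 37.3 (12.5 to 183) for the combination over untreated. HRK reached the mean of 1 CPM needed for comparison only through these libraries with indisulam. The intervals cover counting error and allow neither for that nor for the choice of the gene by its ratio, so they are description only. As with PMAIP1, both libraries with indisulam stood apart from both without it. The pattern is not particular to PMAIP1 and HRK, since BCL2L1 and the pathway gene BIRC3 had it too. The promoter of BIRC3 was not searched. The 250 bases before the RefSeq start (GRCh38.p14) are shown for PMAIP1 and HRK as 2 genes with that pattern, for PMAIP1 at chr18:59899746-59899995 on the plus strand and for HRK at chr12:116881442-116881691 on the minus strand. They are written 5′ to 3′ on the gene's strand and end at the base before the start. Capitals mark GC boxes (GGGCGG), the core of the cAMP response element (TGACG) and the ATF4 composite element (TGATGNAA), on either strand.
PMAIP1: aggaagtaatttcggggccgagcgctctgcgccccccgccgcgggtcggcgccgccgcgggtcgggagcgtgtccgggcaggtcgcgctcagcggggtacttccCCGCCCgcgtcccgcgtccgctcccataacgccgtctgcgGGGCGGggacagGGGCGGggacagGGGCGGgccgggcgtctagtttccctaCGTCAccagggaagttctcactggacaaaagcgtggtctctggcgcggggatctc
HRK: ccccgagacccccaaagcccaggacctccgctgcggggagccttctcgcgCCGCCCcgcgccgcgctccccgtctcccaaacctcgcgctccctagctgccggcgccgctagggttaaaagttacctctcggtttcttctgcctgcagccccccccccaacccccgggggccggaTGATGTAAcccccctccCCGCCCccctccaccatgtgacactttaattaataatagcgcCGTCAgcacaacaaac

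The PMAIP1 promoter was 72.8% G and C and held 4 GC boxes and 1 cAMP core, 55 to 51 bases before the start. The HRK promoter was 66.4% G and C and held 2 GC boxes, 1 cAMP core 16 to 12 bases before the start and 1 ATF4 composite element 75 to 68 bases before it. Such matches are common: of 35116 RefSeq promoters of this length, 42.6% held a GC box, 21.2% the cAMP core and 3.14% the composite element. The full cAMP response element (TGACGTCA), of which the core is part, was in neither and in 1.65% of all. RefSeq entries were found for 8 of the 10 members, with 9 promoters since BCL2L1 has 2. Of these 9, 4 held the cAMP core (PMAIP1, BCL2, BAX and 1 of BCL2L1), 4 a GC box and 1, that of BCL2A1, the composite element. An E-box (CACGTG, 6.34% of all) was in 2, those of BAX with 4 and BBC3 with 1, an AP-1 element (TGANTCA, 6.57% of all) in that of BBC3, a p53 decamer (5.57% of all) in that of BAK1 and an NF-kB site (5.21% of all) in none. These are matches of letters only and say nothing of a factor's binding.

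**Figure D2:**
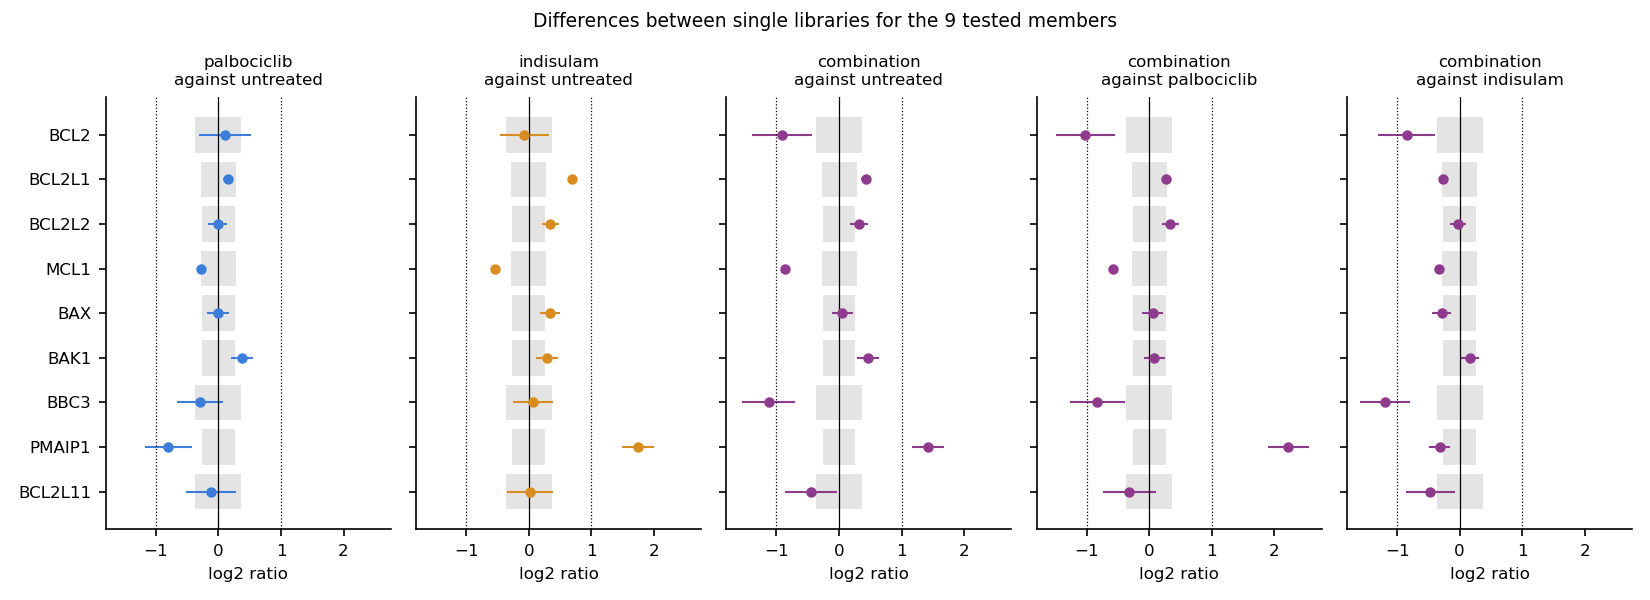
Log2 ratio (x axis) of each of the 9 members compared, in the 5 comparisons between libraries. Points are ratios of single libraries with their 95% counting interval, grey bars are the spread bound on either side of 0, and dotted lines mark 2-fold. PMAIP1 passes 2-fold in the 3 comparisons of a library with indisulam against one without it, BBC3 in 2 of the comparisons of the combination and BCL2 in 1.

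A gene was called higher or lower when its libraries differed at least 2-fold and the counting interval excluded 0. In palbociclib against untreated, 0 of 9 members were called, while 5.96% of all genes compared were called higher and 4.95% lower. The member ratios ran from -0.80 (PMAIP1) to 0.38 (BAK1), with a median of -0.01 against -0.02 over all genes. In indisulam against untreated, PMAIP1 was called higher and none lower, with 8.44% of all genes higher and 6.71% lower. The member median was 0.30 against 0.06 for all genes, and 7 of 9 members were above 0, or 6 with TMM, DESeq2 or upper-quartile scaling, where BCL2L11 lay just below 0. Over all genes compared, 7788 of 14269 were above 0.

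In the combination against untreated, PMAIP1 was called higher and BBC3 lower, beside 13.0% and 10.6% of all genes. The median was 0.05 for the members and 0.05 for all genes. In the combination against palbociclib, PMAIP1 was called higher and BCL2 lower, beside 9.62% and 7.40% of all genes, and BCL2 lay close to the threshold. Against indisulam, BBC3 was called lower and no member higher, beside 3.19% and 5.09% of all genes. Here 8 of 9 members were below 0, with BAK1 at 0.16 the exception (7 of 9 with upper-quartile scaling, where BCL2L2 lay just above 0). The member median was -0.32 against -0.01 for all genes, of which 7296 of 14269 were below 0. The comparisons of the single drugs and of the combination with untreated share the untreated library, and the last 3 share the combination library. With at most 2 of 9 members past the threshold in a comparison, these counts are no result about the members as a group.

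**Figure D3:**
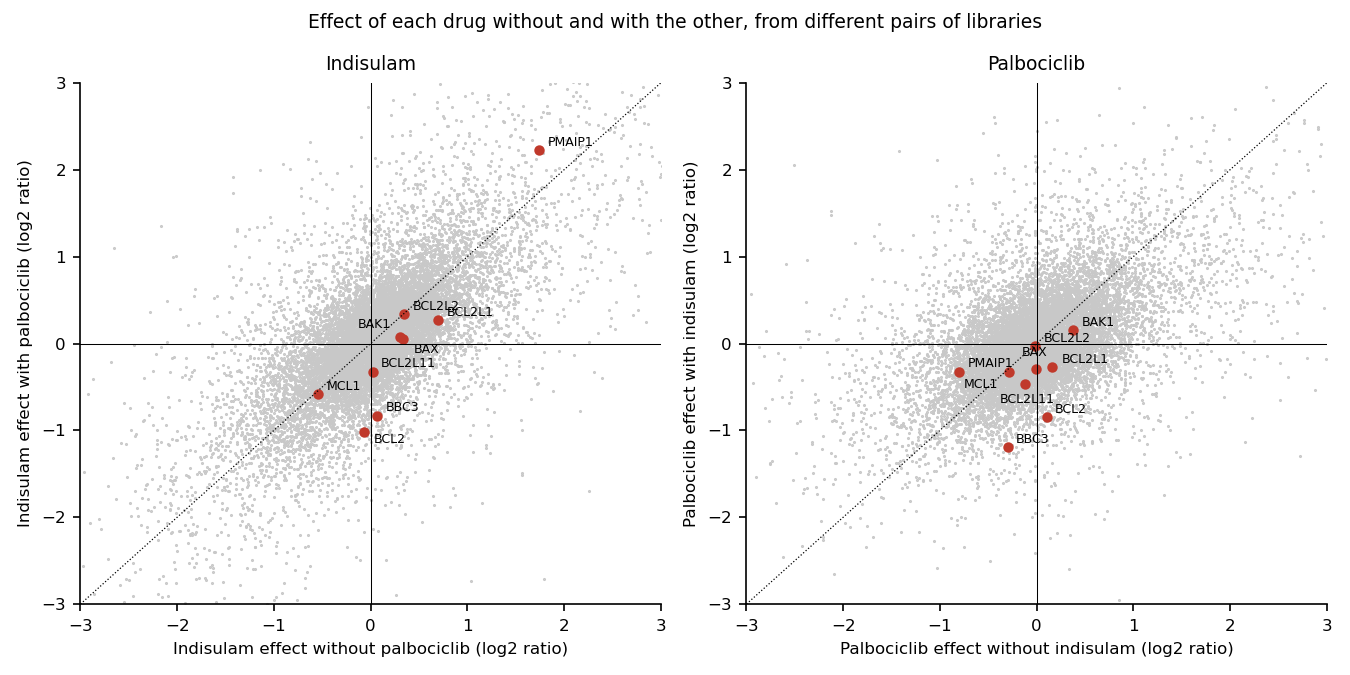
Log2 ratio for each drug without the other drug (x axis) and with it (y axis), from pairs of libraries that do not overlap. Grey points are the 14269 genes compared, red points the 9 members, and the dotted line marks equal ratios; 301 genes (indisulam) and 86 genes (palbociclib) lie beyond the axes at 3. PMAIP1 lies at 1.75 and 2.22 for indisulam, MCL1 lies near the dotted line in both panels, and BCL2 and BBC3 lie well below it.

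The layout gives 2 estimates for each drug, of which the second was made in the presence of the other drug. For indisulam, the estimates were -0.54 and -0.58 for MCL1 and 0.35 and 0.33 for BCL2L2. They were higher with palbociclib present for PMAIP1 (1.75 and 2.22) and lower for BCL2L1 (0.70 and 0.27), BAX (0.34 and 0.05) and BAK1 (0.30 and 0.08). For palbociclib, MCL1 had -0.28 and -0.32, whereas BCL2 had 0.11 and -0.85 and BBC3 -0.30 and -1.19. Of the 9 members, 8 had a combination ratio below the sum of the single drugs, beside 7063 of all 14269 genes compared. The median departure of the 9 members was -0.29 against 0.01 over all genes. PMAIP1 alone was above the sum, at 0.48 (0.07 to 0.89). Of the members below it, MCL1, BCL2L2, BAK1 and BCL2L11 had intervals that included 0. The farthest below were BCL2, at -0.95 (-1.57 to -0.34), and BBC3, at -0.90 (-1.44 to -0.35), which is 1.83 and 1.73 times the spread of the departure over genes of their class. No member departed by 2-fold, beside 4.11% of all genes above the sum and 3.93% below it. All departures use the same 4 libraries, so that a shift in 1 of them moves every member together.

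**Figure D4:**
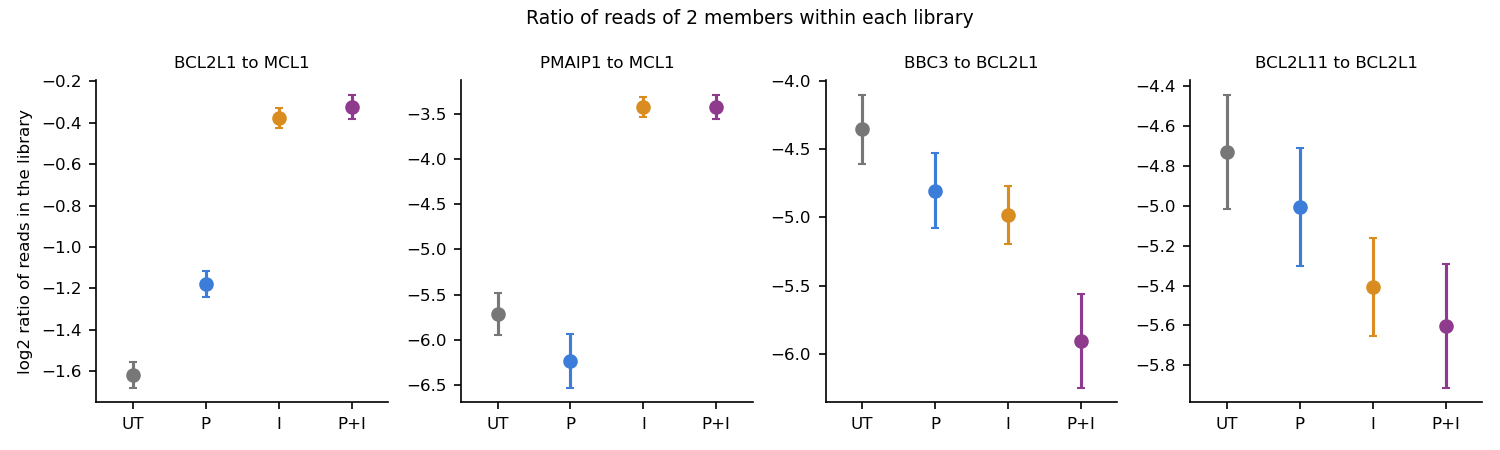
Log2 of the ratio of reads of 2 members within each library (y axis, own scale per panel), with 95% counting intervals, for the untreated (UT), palbociclib (P), indisulam (I) and combination (P+I) libraries. BCL2L1 to MCL1 and PMAIP1 to MCL1 are high in the libraries with indisulam, and BBC3 to BCL2L1 is lowest with the combination.

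Ratios of reads within a library do not depend on how libraries are scaled to each other. There were 0.326 BCL2L1 reads for each MCL1 read untreated, 0.442 with palbociclib, 0.770 with indisulam and 0.799 with the combination. The ratio was 2.45-fold higher in the combination than untreated, a log2 difference of 1.29 (1.21 to 1.38), and 2.36-fold higher with indisulam. Between the combination and indisulam it differed by 0.05 (-0.03 to 0.13). PMAIP1, whose product binds that of MCL1, had reads equal to 1.89% of those of MCL1 untreated, 1.32% with palbociclib, 9.27% with indisulam and 9.28% with the combination. The log2 difference to untreated was 2.28 (2.03 to 2.54) with indisulam, 2.29 (2.02 to 2.55) with the combination and between the combination and indisulam 0.00 (-0.17 to 0.18).

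The reads of the other BH3-only members, BBC3 and BCL2L11, were set against those of BCL2L1, whose product both of theirs bind. BBC3 reads were 4.86% of BCL2L1 reads untreated, 3.55% with palbociclib, 3.14% with indisulam and 1.64% with the combination. The log2 difference of the combination was -1.56 (-1.98 to -1.13) to untreated and -0.92 (-1.33 to -0.52) to indisulam. BCL2L11 reads were 3.73, 3.08, 2.34 and 2.03% of BCL2L1 reads, a log2 difference of -0.87 (-1.29 to -0.45) between the combination and untreated. BCL2L1 reads outnumbered those of BCL2 by 29.5, 30.5, 50.3 and 75.6 to 1, and those of BCL2L2 by 3.85 to 4.91 to 1.

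Beyond the members, 63 further genes of the apoptosis pathway were followed in 10 lists, and 58 of them were compared. Past 2-fold were 1 higher and 3 lower with palbociclib, 4 and 1 with indisulam and 5 and 4 with the combination, each to untreated. Over all genes compared, 5.96% were higher and 4.95% lower with palbociclib, 8.44% and 6.71% with indisulam and 13.0% and 10.6% with the combination. On top of palbociclib the combination had 5 higher and 2 lower, beside 9.62% and 7.40% of all genes, and on top of indisulam 0 and 1, beside 5.09% and 3.19%. Shares this close to or below those of all genes are no result about the pathway. Medians of these genes ran from -0.07 to 0.11 over the 5 comparisons, against -0.02 to 0.07 for all genes. With the combination 31 of the 58 genes were above the untreated library and 27 below it, beside 7547 and 6722 of all genes compared.

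**Figure D5:**
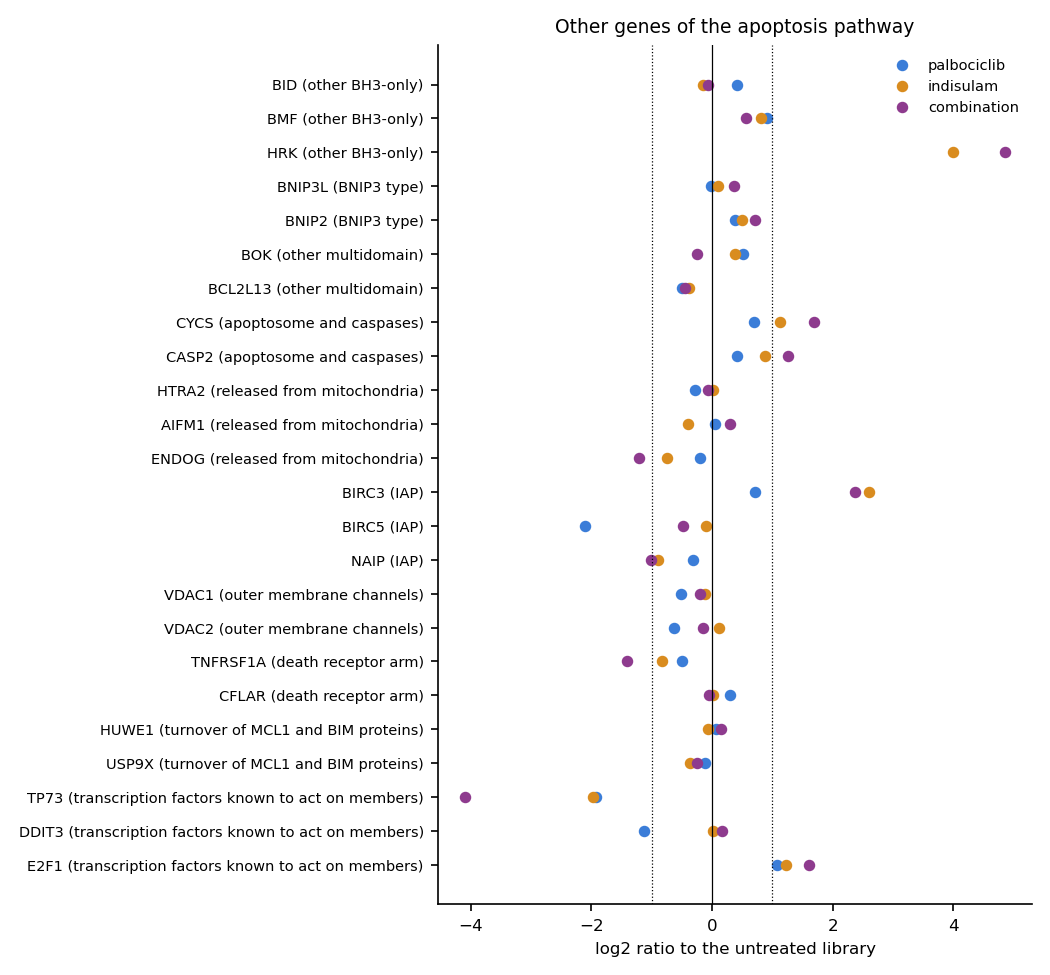
Log2 ratio to the untreated library (x axis) for the called genes, and otherwise the genes with the most reads, of each list of the apoptosis pathway, in the palbociclib, indisulam and combination libraries. Dotted lines mark 2-fold; the ratios of HRK and that of TP73 with the combination rest on a library with 3 reads, and no palbociclib point is drawn for HRK. HRK and BIRC3 stand to the right with indisulam and the combination, and BIRC5 past 2-fold to the left with palbociclib alone.

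Of the inhibitor of apoptosis list, BIRC3 and BIRC5 differed most. BIRC3, an NF-kB target that encodes cIAP2, measured 36.4 CPM untreated, 59.9 CPM with palbociclib, 221 CPM with indisulam and 189 CPM with the combination, so that both libraries with indisulam were above both without it. Its log2 ratio was 2.60 for indisulam over untreated and 1.66 for the combination over palbociclib. BIRC5, a gene of mitosis that encodes survivin, measured 82.6, 19.1, 77.1 and 59.2 CPM. It was lower with palbociclib by a log2 ratio of -2.11 but not in the combination, which had -0.48 to untreated and was 1.63 above palbociclib. NAIP (8.20 CPM untreated, 4.04 CPM with the combination) was just past 2-fold and has near-identical copies, between which reads cannot be assigned.

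Downstream of the pores, CYCS, the gene of cytochrome c, measured 43.7, 70.6, 95.1 and 142 CPM, highest in the combination at a log2 ratio of 1.69 to untreated. CYCS has many processed pseudogenes, so its reads may be undercounted. Of the caspases, CASP2 was 1.27 above untreated with the combination (22.0 CPM untreated). ENDOG, a mitochondrial nuclease, was lower with the combination, at 6.20 CPM against 14.4 CPM. In the death receptor arm 11 of 12 genes passed no threshold with the combination, and TNFRSF1A, the receptor of tumour necrosis factor, was lower at 476, 337, 268 and 178 CPM, a log2 ratio of -1.42. CFLAR, an inhibitor of caspase-8, stayed between 135 and 171 CPM. The other genes with the most reads of their lists passed no threshold. The mitophagy receptor BNIP3L measured 106 to 137 CPM. BNIP2, placed in the same list by its name, measured 49.8 CPM untreated and 81.3 CPM with the combination. BID, which caspase-8 cleaves to link the death receptors to the pores, measured 58.6 to 86.8 CPM and was highest with palbociclib. The channels VDAC1 (263 to 377 CPM) and VDAC2 (130 to 219 CPM) were lowest with palbociclib, at log2 ratios of -0.52 and -0.63 to untreated, and both have pseudogenes. BCL2L13, HTRA2 and AIFM1 had ratios to untreated between -0.50 and 0.30.

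Among genes that act on members, the proteins HUWE1 and USP9X control the turnover of MCL1. HUWE1 measured 512 to 589 CPM and USP9X 492 to 633 CPM, with no ratio to untreated beyond 0.36 in size. Of 10 transcription factors known to act on members, TP73 had 59 reads untreated, 15 with palbociclib, 19 with indisulam and 3 with the combination, at which the ratio to untreated was 0.0445 (0.00891 to 0.136). DDIT3, the gene of CHOP, was lower with palbociclib alone (27.6, 12.6, 27.8 and 30.9 CPM). E2F1 measured 6.13, 13.1, 14.4 and 18.9 CPM, higher in all 3 treated libraries. BMF and BOK were the genes of the lists that lay below the sum of the single drugs by over 2-fold. BMF, a BH3-only gene, measured 48.5 CPM untreated, 91.4 CPM with palbociclib, 84.8 CPM with indisulam and 72.1 CPM with the combination, and BOK, a further effector, 15.1, 21.5, 19.6 and 12.7 CPM. Each single drug was above untreated for both genes, and the departures were -1.15 (-1.33 to -0.97) for BMF and -1.14 for BOK. BIRC5 and DDIT3 departed the other way, by 1.73 and 1.28. Thus 2 of the 58 genes compared were below the sum by 2-fold and 2 above it. Over all genes compared, 3.93% were below and 4.11% above, so these counts are no result about the pathway.

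PMAIP1 had the widest range of any member, 2.56 on the log2 scale over the 4 libraries. Of 11376 genes with a mean of 5 CPM or more, the 5 closest to its centred log2 profile, by Euclidean distance, were CD55, ADRA1D, LCP1, IQCD and PDLIM5, at distances of 0.247 to 0.313. CD55, a complement regulator on the cell surface, measured 61.2, 36.2, 229 and 145 CPM. LCP1, an actin-bundling protein, measured 236, 124, 665 and 689 CPM. With 4 libraries a close profile is a description of these values only.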

How the data were processed

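The members and the pathway lists were chosen with earlier results of these data known. The authors aligned reads to GRCh38 with TopHat2 2.1 and HTSeq is named for counting, per the labels; the deposited values are raw read counts per Ensembl gene, with 1 table per library and no normalization. Strand setting, annotation release and pooling of the technical duplicates are not given in the sources used here. Reads tallied outside single genes (9.61 to 10.1% of those tallied), such as those with several alignments, were kept out of library sizes, so that genes with near-identical copies are undercounted.

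Counts were divided by the gene total of their library (12555908 untreated, 12691481 palbociclib, 16712174 indisulam, 14359529 combination) and scaled to the mean total, and 1 was added before log2 ratios were formed. Intervals are 95% and cover Poisson counting error only, as reads are not independent molecules. Low counts were compared by exact conditional intervals. A gene was compared if its mean reached 1 CPM, and called at 2-fold with an interval that excluded 0. Since each condition had 1 library, differences have no replicate check and p-values were not formed. Genes of the pathway lists were named where they were called in a comparison and, in lists with fewer than 3 such genes, for the 2 highest mean CPM values. The script was tested on simulated data. TMM (edgeR 4.0.16), DESeq2 1.42.0 and upper-quartile scaling, totals without mitochondrially encoded genes, other pseudocounts, filters and fold thresholds were tried as alternatives. Positions and exon lengths come from GENCODE 44, and promoters from RefSeq (GRCh38.p14). Some genes of the lists are not reported here.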

Additional observations from a re-analysis of the deposited data

Results flagged for a closer look

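BCL2L1 had palbociclib ratios of opposite sign in the absence and presence of indisulam, each with a counting interval that excluded 0. The log2 ratio of the palbociclib to the untreated library was 0.15 (0.08 to 0.23). That of the combination to the indisulam library was -0.27 (-0.33 to -0.21). The difference between them is the departure from additivity, which was -0.43 (-0.52 to -0.33). That is 1.08 times the spread of the departure over genes of its class. It was not tested over replicates, since each ratio rests on 1 library per condition. Both ratios lie inside the spread bound of 0.28 for genes of this level.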

How the results depend on the processing

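No paired analysis was possible because each condition had 1 library. For the same reason, leaving out a library was not possible. No member ratio past 2-fold changed sign under any alternative. Of the 9 members, BAX, BCL2L2 and BCL2L11 changed sign under at least 1 other scaling, each in comparisons where the ratio was at most 0.0540 in size. The other scalings put MCL1 between -0.60 and -0.54 with indisulam and between -0.92 and -0.86 with the combination, both to untreated. With a pseudocount of 5, 1 member instead of 2 was called in the combination against palbociclib, since BCL2 fell under the threshold.

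At a threshold of 1.5-fold in place of 2-fold, the members called were 1 with palbociclib, 2 with indisulam and 4 with the combination, each against untreated, and 2 in the combination against indisulam (0, 1, 2 and 1 at 2-fold). Over all 14269 genes compared, the calls at 1.5-fold, in the same order and followed by the departure from additivity, were 3573, 4510, 6085, 3196 and 2732, against 1558, 2162, 3360, 1181 and 1148 at 2-fold. In the combination against palbociclib they were 4713 against 2429, and the members called at 1.5-fold were PMAIP1, BCL2 and BBC3. The member counts at either threshold are no result about the members as a group. A filter at 5 CPM left 834, 1212, 2104, 544 and 583 calls, and 1396 in the combination against palbociclib. Without the filter the combination against indisulam had 2133 calls. Depth limits BCL2A1, HRK and TP73, which had 3 reads or fewer in at least 1 library. It also limits BCL2 and BBC3, with 54 and 67 reads in the combination.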
